A study of Homo sapiens with 12 samples.

Results

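The 10 genes described here carry cobalamin (vitamin B12) into the human cell, strip its upper ligand and pass it to its enzymes. They were chosen by name from the pathway, out of 57500 genes counted in HepG2 cells. TCN1 and TCN2 encode the cobalamin carriers haptocorrin and transcobalamin, CD320 the transcobalamin receptor, and LMBRD1 a lysosomal membrane protein needed for cobalamin export. MMACHC encodes the cytosolic decyanase and MMADHC the protein that sorts cobalamin between cytosol and mitochondrion. MMAA and MMAB serve the mitochondrial branch, and MTR and MTRR form the cytosolic branch. All 10 were found in the files, and 9 had enough counts to be tested. TCN1 did not, with 1 count over 12 libraries.

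The study asked how endogenously made cyanide acts in cells, and these RNA-seq libraries came from 3 groups of HepG2, an established human hepatocarcinoma line. WT was the parent line, shTST was silenced for thiosulfate sulfurtransferase (TST, or rhodanese), and overTST overexpressed it, with 4 libraries each. By the methods of the study, all 12 cultures were kept for 24 h in normal medium with 400 µM glycine. Both engineered lines were made by lentiviral transduction with blasticidin selection, overTST with a codon-optimized, Myc-tagged TST behind a CMV promoter and shTST with a TST shRNA plasmid. WT is not stated to carry a scrambled shRNA or an empty vector, so effects of TST and of transduction and selection cannot be told apart. The series calls the replicates independent, a word the study uses for experiments run on separate days, but the labels name no culture or day for any library, and p-values measure the spread between these libraries.

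TST is a mitochondrial enzyme that converts cyanide to thiocyanate with sulfur from thiosulfate. Cobalamin meets cyanide in another way, since its cobalt binds it tightly. In cyanocobalamin, the form found in most supplements, MMACHC reductively removes the cyanide after the vitamin has left the lysosome. The freed cofactor becomes methylcobalamin on methionine synthase (MTR), which remethylates homocysteine, or adenosylcobalamin, made by MMAB for methylmalonyl-CoA mutase. The liver is the main store of the vitamin.

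The targeted gene was measured first. TST stood at 47.2, 47.5, 52.8 and 48.5 CPM (counts relative to library size, scaled by TMM) in WT and at 33.0, 33.6, 36.6 and 33.5 CPM in shTST, a log2 fold change of −0.52 (SE 0.055, adjusted p = 3.2e-06 by edgeR's quasi-likelihood test). In overTST it read 51.8, 56.0, 61.6 and 62.1 CPM, a log2 fold change of 0.24 (SE 0.062, adjusted p = 0.00384), and the lowest overTST library lay below the highest WT library. With a correction for gene length, described below, the overTST value was 0.097 (adjusted p = 0.201). Reads from a codon-optimized transgene need not align to the endogenous gene, and how far this count includes the transgene was not tested. The study itself checked TST in both lines by western blot and by the breakdown of added cyanide, which these counts do not measure. Total counts ran from 22911380 to 45120508 per library and were lower in overTST than in WT (two-sided exact permutation p = 0.0286, the smallest that 4 against 4 can give). All 11 hepatocyte and HepG2 markers were at 1 TPM or more in every library (TPM, counts divided by exonic length and scaled to the same total in each library). Of 4 leukocyte markers, PTPRC stayed at or below 0.0118 TPM, and the other 3 were at 1 TPM or more in every library. These were CD68 at 1.22 to 3.07 TPM, CD14 at 5.08 to 9.81 TPM and LYZ at 1978 to 2780 TPM. Of 3 endothelial and 3 kidney markers, 0 reached 1 TPM in every library. The 11 hepatocyte markers summed to 15117 to 19711 TPM in WT, 18646 to 21600 TPM in shTST and 14203 to 17746 TPM in overTST. These sums were apart between shTST and overTST, but the markers differed among themselves. Mean TPM was lower in shTST than in overTST for TTR, KRT8 and KRT18 and higher for the rest. Sums in TPM also depend on the length make-up of each library, so they are given as a description. The 4 fibroblast markers, led by PDGFRB and with COL1A2 and DCN at or near 0, summed to 8.15 to 9.68 TPM in WT, 6.55 to 8.06 TPM in shTST and 5.28 to 5.91 TPM in overTST. The mitochondrial share of counts was 6.91 to 11.98% in WT, 6.84 to 8.65% in shTST and 10.8 to 11.7% in overTST. The part of these differences in the results was not tested. In bulk libraries, fewer cells of a type and less RNA per cell cannot be told apart.

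CD320, the receptor, was the most abundant of the 10 messages in WT cells, and both carriers were the least abundant. On the TPM scale, which divides by exonic length and so allows genes to be compared within a group, CD320 stood at 209 ± 31.4 (SD, n = 4), above 96.2% of the genes tested. MMADHC followed at 127 ± 10.98 TPM and MMAB at 27.2 ± 3.99 TPM. LMBRD1 stood at 20.4 ± 1.78 TPM, and its libraries overlapped neither those of MMAB nor those of MTRR. MTRR at 15.6 ± 0.914, MMACHC at 12.8 ± 1.42 and MTR at 11.5 ± 0.975 TPM came next, and each overlapped its neighbour in that order. MMAA at 0.749 ± 0.114 TPM and TCN2 at 0.581 ± 0.226 TPM were a low pair with overlapping libraries, and MTR was 15.4-fold above MMAA. The order was the same in shTST, where MMAA (1.05 ± 0.135 TPM) no longer overlapped TCN2 (0.569 ± 0.235 TPM). In overTST the places of MMACHC (10.4 ± 0.646 TPM) and MTRR (10.4 ± 0.753 TPM) were exchanged, and these 2 overlapped. TPM depends on the length make-up of each library, so the cobalamin genes are compared between groups only on the CPM scale.

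In shTST against WT, 0 of the 9 tested genes passed an adjusted p of 0.05 by edgeR, where 16.1% of all 14584 genes tested did (6.69% higher and 9.4% lower). At an unadjusted p under 0.05, 2 of the 9 were found, MMAA and LMBRD1, against 30.2% of all genes. DESeq2 and limma-voom also called 0 of the 9. For 0 of the 9 did the shTST and WT libraries not overlap, which held for 19.1% of all genes. Upper-quartile scaling moved the share of higher genes among all called genes from 41.6% to 52.7%, and 0 of the 9 passed under it too. The median log2 fold change of the 9 was −0.02, beside 0.004 over all genes tested.

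In overTST against WT, 3 of the 9 passed, with MMAB higher and MTR and MTRR lower. Over all 14421 genes tested, 33.9% passed in that comparison, 15.7% higher and 18.2% lower, so a count of 3 in 9 was near the background. For MMAB, MTR and MTRR the 4 overTST libraries did not overlap the 4 WT libraries, which held for 30.4% of all genes. The median log2 fold change of the 9 was −0.06, beside 0.0019 over all genes. Both comparisons share the WT libraries, so the lines were also compared directly. There 2 of the 9 passed, MTR and MTRR, both higher in shTST than in overTST, where 33% of 14883 genes passed and 16.9% were higher in shTST.

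**Figure D1:**
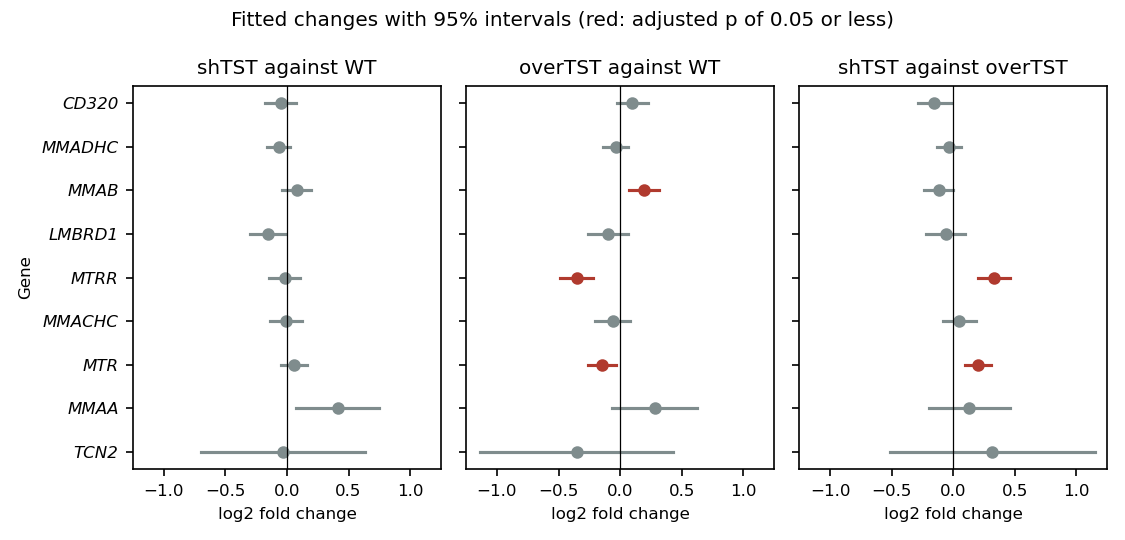
Log2 fold change of each tested gene (point) with its 95% confidence interval (line) in shTST against WT, overTST against WT and shTST against overTST, in red where the adjusted p was 0.05 or less. MMAB, MTR and MTRR are red in overTST against WT, MTR and MTRR are red in the direct comparison, and no gene is red in shTST against WT.

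MMACHC, the decyanase (ENSG00000132763, GRCh38 chr1:45500053-45513382, plus strand), had overlapping values in the 3 groups. It read 25.7, 22.4, 23.3 and 25.0 CPM in WT, 22.8, 23.4, 24.1 and 25.4 CPM in shTST, and 21.9, 22.3, 24.5 and 23.7 CPM in overTST. Its log2 fold change was −0.009 in shTST (95% interval −0.14 to 0.12, adjusted p = 0.941) and −0.06 in overTST (95% interval −0.20 to 0.08, adjusted p = 0.544). Direct comparison of the lines gave 0.05 (95% interval −0.08 to 0.18, adjusted p = 0.601). Its exons share 379 bases, 7.16% of its exonic length, with PRDX1 on the opposite strand, a peroxiredoxin gene at a mean of 830 CPM. The sources used here do not say whether counting used strand, so reads from that overlap cannot be assigned between them. PRDX1 passed in overTST (0.16, adjusted p = 0.0175), though not without overTST replicate 3 or 4 (adjusted p = 0.0678 and 0.056), and its value was −0.01 with the correction for gene length. CCDC163, which starts 26 bases away on the other strand, did not pass in any comparison, with 6.12 to 8.84 CPM.

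The transcription factors ZNF143 and THAP11, with the co-regulator HCFC1, are known to drive MMACHC, and inherited defects of HCFC1 lower cobalamin processing. The 300-base windows of RefSeq (GRCh38.p14, 250 bases before to 50 after the start) were therefore searched on both strands for ACTACNNNTCCCA, letters found in elements of these factors. They were chosen after the sequences had been seen, as the stretch of this form that the MMACHC and MTR windows share. By that choice they occurred in MMACHC and MTR, 2 of the 8 genes with an entry. TCN2 and MTRR had no entry, so their promoters were not searched. They were in 587 of 35116 promoters (1.67%). Both windows are shown because they carry that element, in capitals. The MMACHC window lies at chr1:45500050-45500349 and the MTR window at chr1:236795031-236795330, both on the plus strand. A match of letters is a description and does not show that a factor was bound.
MMACHC: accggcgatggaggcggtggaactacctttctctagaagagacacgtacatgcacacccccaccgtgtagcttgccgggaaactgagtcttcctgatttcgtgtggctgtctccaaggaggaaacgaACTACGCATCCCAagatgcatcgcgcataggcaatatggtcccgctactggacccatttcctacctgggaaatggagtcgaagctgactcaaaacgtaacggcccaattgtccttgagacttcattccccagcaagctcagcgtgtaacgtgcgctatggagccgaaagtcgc
MTR: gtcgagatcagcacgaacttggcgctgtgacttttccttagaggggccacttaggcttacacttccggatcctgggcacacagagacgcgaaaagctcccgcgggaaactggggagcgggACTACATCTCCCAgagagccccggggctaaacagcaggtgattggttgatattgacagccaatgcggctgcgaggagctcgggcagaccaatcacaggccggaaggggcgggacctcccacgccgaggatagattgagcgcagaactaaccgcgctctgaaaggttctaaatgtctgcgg

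All 3 factors were measured. HCFC1 read 249, 271, 240 and 221 CPM in WT, 209, 215, 242 and 229 CPM in shTST and 187, 213, 178 and 179 CPM in overTST. Every overTST library lay below every WT library, and the log2 fold change was −0.37 (SE 0.062, adjusted p = 5.6e-05), or −0.24 with the correction for gene length (adjusted p = 0.00294). THAP11 read 59.4, 56.6, 62.3 and 59.3 CPM in WT against 51.9, 54.8, 51.4 and 56.3 CPM in overTST, a log2 fold change of −0.15 (SE 0.055, adjusted p = 0.0395) that no longer passed with upper-quartile scaling (adjusted p = 0.0968) or without any of WT replicates 1, 3 and 4 or overTST replicates 1, 2 and 3 (adjusted p up to 0.131). With the correction for gene length THAP11 was at −0.28 in overTST (adjusted p = 0.000167), and it then also passed between the lines, higher in shTST by 0.15 (adjusted p = 0.0219). ZNF143 did not pass in overTST against WT (−0.19, adjusted p = 0.0675) and was higher in shTST than in overTST by 0.28 (SE 0.077, adjusted p = 0.00739). HCFC1 was also higher in shTST than in overTST by 0.24 (SE 0.062, adjusted p = 0.00352), a call that ended with the correction for gene length (0.13, adjusted p = 0.104). In shTST against WT none of these 3 passed.

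MMADHC, which hands cobalamin on from MMACHC and decides its branch, read 94.9, 99.0, 102 and 99.1 CPM in WT. Values were 96.5, 98.6, 90.5 and 91.2 CPM in shTST and 100.02, 92.6, 99.97 and 92.1 CPM in overTST, so the groups overlapped. The log2 fold change was −0.07 in shTST (adjusted p = 0.336) and −0.04 in overTST (adjusted p = 0.615). With the correction for gene length the overTST value was −0.16 (adjusted p = 0.0177). MMADHC shares 560 exonic bases with the divergent transcript MMADHC-DT, which was at 0.861 to 1.48 CPM. The ratio of MMACHC to MMADHC counts within a library averaged −2.03 on the log2 scale in WT (SD 0.12), −1.98 in shTST (SD 0.12) and −2.06 in overTST (SD 0.097), and neither difference from WT passed (two-sided exact permutation p = 0.514 and 0.771, adjusted p = 0.735 and 0.857).

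MTRR, the reductase that reactivates methionine synthase once its cobalamin has been oxidized, fell in overTST. It lies at GRCh38 chr5:7851186-7906025 on the plus strand (ENSG00000124275). It read 35.6, 34.9, 35.0 and 38.5 CPM in WT and 30.7, 27.2, 27.4 and 27.3 CPM in overTST. All 4 overTST libraries lay below the lowest WT library, and overTST replicate 1 stood above the other 3. The log2 fold change was −0.35 (SE 0.064, 95% interval −0.48 to −0.22, adjusted p = 1.64e-04), a level 0.783 times that of WT. In shTST it read 32.7, 36.1, 38.9 and 34.0 CPM, which overlapped WT, with a log2 fold change of −0.02 (95% interval −0.14 to 0.10, adjusted p = 0.853). MTRR was higher in shTST than in overTST by 0.33 (SE 0.063, adjusted p = 0.000286). CFAP90, whose start lies 304 bases away on the other strand, was at a mean of 0.232 CPM. FASTKD3, a mitochondrial RNA-binding protein gene that shares 100 exonic bases with MTRR, was at a mean of 6.80 CPM. It did not pass in overTST against WT (−0.06, adjusted p = 0.690) or in shTST (0.22, adjusted p = 0.106), where every library lay above WT. Like MTRR, it was higher in shTST than in overTST, by 0.28 (SE 0.094, adjusted p = 0.0236). With the correction for gene length that difference was 0.35 (adjusted p = 0.00607). Without shTST replicate 1 or 4 or overTST replicate 2 or 4 the uncorrected difference did not pass (adjusted p from 0.057 to 0.0664).

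MTR, methionine synthase itself, was lower in overTST by less. The gene (ENSG00000116984) spans GRCh38 chr1:236795281-236903981 on the plus strand. It read 47.4, 46.4, 45.4 and 47.4 CPM in WT and 41.2, 44.3, 40.7 and 42.2 CPM in overTST. The highest overTST library lay below the lowest WT library. The log2 fold change was −0.15 (SE 0.055, 95% interval −0.26 to −0.03, adjusted p = 0.0405), a level 0.902 times that of WT. In shTST it read 48.1, 45.3, 48.4 and 51.8 CPM, overlapping WT, with a log2 fold change of 0.05 (95% interval −0.05 to 0.16, adjusted p = 0.526). MTR was higher in shTST than in overTST by 0.20 (SE 0.053, adjusted p = 0.00458), a call that ended with the correction for gene length (0.06, adjusted p = 0.481). The call against WT was lost without any one of WT replicates 1, 2 and 4 or overTST replicates 1, 3 and 4 (adjusted p from 0.051 to 0.123), with upper-quartile scaling (0.0959) and with no filter on low counts (0.0524), and with the correction for gene length the value was 0.02 (adjusted p = 0.831).

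The ratio of MTR to MTRR counts within a library does not depend on scaling between libraries. On the log2 scale it was 0.41, 0.41, 0.37 and 0.30 in WT and 0.43, 0.70, 0.57 and 0.63 in overTST. All 4 overTST libraries lay above all 4 WT libraries, by 0.21 on average (two-sided exact permutation p = 0.0286, the smallest possible; adjusted p = 0.286 over 10 tests). In shTST the ratio was 0.55, 0.33, 0.32 and 0.61, which overlapped WT (permutation p = 0.400, adjusted p = 0.667).

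Changes in overTST went with gene length. Across all genes tested in overTST against WT, the log2 fold change fell with exonic length (Spearman's rho = −0.404 across genes, which are not independent replicates). Its median was 0.149 for genes up to 3 kb, −0.0269 from 3 to 8 kb and −0.155 above 8 kb. MTR has 11374 exonic bases, the most of the 10, and its −0.15 was near the median of its class. MTRR with 6498 bases lay below the median of its class, and MMAB with 6290 bases above it. After removal of the trend, MTRR was at −0.28 (adjusted p = 0.00138) and MMAB at 0.27 (adjusted p = 0.00135). MMADHC (2191 bases) and LMBRD1 (2402 bases) then passed as lower, at −0.16 and −0.21 (adjusted p = 0.0177 and 0.0479), so that 4 of the 9 passed, beside 28.5% of all genes under this correction. In shTST against WT the trend was weaker (rho = −0.09), and 0 of the 9 passed with or without its removal. What set the trend was not tested.

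MMAB, the adenosyltransferase that makes adenosylcobalamin in the mitochondrion, rose in overTST. It lies at GRCh38 chr12:109553737-109573874 on the minus strand (ENSG00000139428). It read 62.3, 56.1, 66.0 and 58.1 CPM in WT and 67.2, 68.5, 67.5 and 74.3 CPM in overTST. The lowest overTST library lay just above the highest WT library. The log2 fold change was 0.19 (SE 0.058, 95% interval 0.07 to 0.31, adjusted p = 0.0116), a level 1.14 times that of WT. In shTST it read 65.9, 60.1, 67.9 and 61.6 CPM, with a log2 fold change of 0.08 (95% interval −0.04 to 0.19, adjusted p = 0.377), and the difference between the lines did not pass (−0.12 in shTST relative to overTST, adjusted p = 0.114), but did with the correction for gene length (−0.18, adjusted p = 0.0213). Without overTST replicate 4 the call against WT was lost (0.16, adjusted p = 0.0562).

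MMAB is paired head to head with MVK, mevalonate kinase of cholesterol synthesis, and the 2 share 306 exonic bases, 4.86% of the exonic length of MMAB. Since the strand setting of the counts is not given, reads from those bases cannot be assigned between the 2 genes. How far they enter the MMAB values was not tested. MVK read 74.2, 74.0, 84.4 and 77.3 CPM in WT and 80.8, 78.9, 92.4 and 97.1 CPM in overTST, which overlapped. Its log2 fold change was 0.17 (SE 0.063, adjusted p = 0.0369), and it no longer passed without a filter on low counts (adjusted p = 0.0553). Nor did it pass without any of WT replicates 1, 2 and 4 or overTST replicates 3 and 4 (adjusted p up to 0.176). With the correction for gene length it was at 0.25 (adjusted p = 0.00493). Between the lines MVK was at −0.16 in shTST relative to overTST (adjusted p = 0.0555), or −0.23 with that correction (adjusted p = 0.0116). That difference passed under 8 alternatives and not under 14. The MMAB window is shown because it is shared with MVK. It lies at chr12:109573455-109573754, is read on the minus strand, and shares 211 bases with that of MVK. It holds 5 copies of CCAAT counted on both strands, in capitals (ATTGG where the copy lies on the other strand), and the same 5 copies fall in the MVK window. CCAAT occurred in 34.6% of all promoters and in 5 of the 8 cobalamin genes with an entry, with 3 copies in MTR. Of all promoters, 3.26% held 3 or more and 0.359% held 5 or more. The cut of 5 is the count seen in MMAB, so this share is a description only.
MMAB: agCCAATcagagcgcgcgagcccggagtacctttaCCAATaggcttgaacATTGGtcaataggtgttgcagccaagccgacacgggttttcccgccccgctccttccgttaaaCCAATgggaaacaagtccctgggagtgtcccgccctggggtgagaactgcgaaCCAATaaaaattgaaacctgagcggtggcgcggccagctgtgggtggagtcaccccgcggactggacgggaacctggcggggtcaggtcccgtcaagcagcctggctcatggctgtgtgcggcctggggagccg

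MMAA, the GTPase that loads methylmalonyl-CoA mutase with its cofactor, had few counts. It read 1.63, 2.42, 2.11 and 2.05 CPM in WT (53 to 110 counts), 3.33, 2.81, 2.32 and 2.59 CPM in shTST and 2.87, 2.46, 2.41 and 2.27 CPM in overTST. In shTST 3 libraries lay above all WT libraries and the other overlapped them. The log2 fold change was 0.41 in shTST (SE 0.16, unadjusted p = 0.0189, adjusted p = 0.0874) and 0.28 in overTST (SE 0.17, adjusted p = 0.204). Neither passed, and over all alternatives the adjusted p in shTST ran from 0.0558 to 0.255. Counting error alone gave a coefficient of variation of 11.7% in WT for this gene, against 15.8% observed.

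LMBRD1, of lysosomal export, read 16.9, 17.0, 18.0 and 17.6 CPM in WT, 16.0, 17.0, 14.8 and 14.5 CPM in shTST and 17.6, 14.2, 17.0 and 16.1 CPM in overTST. In shTST 3 libraries lay below every WT library and replicate 2 overlapped them. The log2 fold change was −0.16 in shTST (SE 0.069, unadjusted p = 0.0331, adjusted p = 0.127) and −0.10 in overTST (adjusted p = 0.363). ABCD4, the transporter that works with LMBRD1 in the lysosomal membrane, did not pass in any comparison, with log2 fold changes of −0.02 in shTST and 0.02 in overTST. The ratio of LMBRD1 to ABCD4 differed from WT by −0.14 in shTST and −0.12 in overTST on the log2 scale (two-sided exact permutation p = 0.229 for each, adjusted p = 0.571). On length-corrected values the overTST difference was −0.36 (adjusted p = 0.286).

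CD320, the receptor, read 159, 164, 191 and 159 CPM in WT, 151, 151, 178 and 169 CPM in shTST and 160, 194, 179 and 189 CPM in overTST. The groups overlapped, with WT replicate 3 apart from the other WT libraries. Its log2 fold change was −0.05 in shTST (adjusted p = 0.604) and 0.10 in overTST (SE 0.062, adjusted p = 0.231). In overTST 1 library decided the call, since without WT replicate 3 the value was 0.16 (adjusted p = 0.0346) and without overTST replicate 1 it was 0.15 (adjusted p = 0.0414). Between the lines it was −0.15 in shTST relative to overTST (adjusted p = 0.0724), and it passed without WT replicate 3, shTST replicate 3 or overTST replicate 1 (adjusted p = 0.0441, 0.0222 and 0.0104). With the correction for gene length that difference shrank to −0.04 (adjusted p = 0.615).

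TCN2, the carrier that CD320 binds, was near the limit of counting. It had 25, 26, 24 and 12 counts in WT, 7, 21, 24 and 23 in shTST and 12, 9, 24 and 3 in overTST. The counts overlapped between groups, and the log2 fold changes had wide intervals, from −0.70 to 0.63 in shTST and from −1.14 to 0.43 in overTST (adjusted p = 0.957 and 0.508). TCN2 also shares 246 exonic bases with PES1, a ribosome biogenesis gene at a mean of 224 CPM on the other strand, so the source of these few reads is uncertain. PES1 passed in overTST at 0.14 (SE 0.045, adjusted p = 0.0171), though not with no filter on low counts (adjusted p = 0.111) or without WT replicate 1 or overTST replicate 3 (0.0543 and 0.0565). TCN1 was seen once, in WT replicate 4. In the libraries with 0 counts, a floor of 3 counts allows levels of up to 0.0886 to 0.109 CPM in shTST and 0.109 to 0.131 CPM in overTST, for counting error only.

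Of 18 further genes of the pathway, 15 had enough counts to be tested, and CBLIF, CUBN and LRP2 of intestinal and renal uptake did not. In shTST against WT, 1 passed higher and 1 lower, beside 6.69% and 9.4% of all genes. MAT2A, which makes S-adenosylmethionine from the methionine that MTR supplies, read 80.0, 72.4, 76.7 and 79.5 CPM in WT and 97.0, 79.3, 87.4 and 94.6 CPM in shTST, a log2 fold change of 0.22 (SE 0.056, adjusted p = 0.0109). It no longer passed without shTST replicate 1 (0.18, adjusted p = 0.0522), and shTST and WT libraries overlapped. ABCC1, an export pump that can carry cobalamin out of the cell, read 162, 186, 159 and 160 CPM in WT and 127, 150, 131 and 143 CPM in shTST, a log2 fold change of −0.28 (SE 0.056, adjusted p = 0.00205). AHCY, which splits S-adenosylhomocysteine into homocysteine and adenosine, did not pass (−0.13, adjusted p = 0.0536), though every shTST library lay below WT. It passed under 8 alternatives, among them DESeq2 (adjusted p = 0.016) and limma-voom (0.0256), and not under 10.

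In overTST against WT, 1 of the 15 passed higher and 4 lower, beside 15.7% and 18.2% of all genes. BHMT2, which remethylates homocysteine without cobalamin, read 22.2, 20.0, 18.7 and 19.3 CPM in WT and 25.3, 27.2, 26.1 and 26.0 CPM in overTST, a log2 fold change of 0.38 (SE 0.070, adjusted p = 0.00017). Its overTST libraries all lay above those of WT. ABCC1 was at 129, 134, 130 and 120 CPM (−0.38, SE 0.055, adjusted p = 1.34e-05), below every WT library. MAT2A was at 69.6, 63.8, 65.9 and 66.0 CPM (−0.22, SE 0.053, adjusted p = 0.00263), so that it passed in opposite directions in the 2 lines. HCFC1 and THAP11, given above, were the other 2. Median log2 fold changes of the 15 were 0.01 in shTST and −0.04 in overTST.

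Compared directly, 4 of the 15 were higher in shTST than in overTST and 2 lower, beside 16.9% and 16.1% of all genes. MAT2A had the largest difference of these 6, 0.43 (SE 0.056, adjusted p = 4.78e-06). MMUT, the mutase that uses adenosylcobalamin, was at 32.9, 34.7, 33.0 and 35.7 CPM in shTST and 31.2, 27.2, 29.8 and 31.5 CPM in overTST, a difference of 0.19 (SE 0.061, adjusted p = 0.0189). This call was lost without shTST replicate 4 or overTST replicate 2 (adjusted p = 0.069 and 0.0875). HCFC1 and ZNF143 were the other 2 that were higher. BHMT2 was lower in shTST by 0.42 on the log2 scale (adjusted p = 2.62e-05), and AHCY was lower by 0.20 (SE 0.045, adjusted p = 0.00101).

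The genes whose log2 CPM followed the 3 called genes most closely over the 12 libraries were named by Pearson's r among 11530 genes. For MTRR these were RIPK1 (r = 0.95), MPP7 (0.937) and PPARA (0.934). For MTR they were KREMEN1 (0.903), RXYLT1 (0.899) and NUP210 (0.897), and for MMAB they were ECHS1 (0.947), MGMT (0.946) and CCDC57 (0.937). The 12 points fall into 3 lines, so any gene that differs between overTST and the others scores high, and r is given as a description only.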

How the data were processed

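Per the submitters' processing notes, the authors trimmed reads (Trimmomatic 0.36), aligned them to GRCh38 (STAR 2.5.2b) and deposited gene counts from featureCounts (Subread 1.5.2), unnormalized, for 12 libraries. The annotation release and strand setting are not given in the sources used here. Symbols were matched for 56410 of 57500 gene IDs. Genes passing edgeR's filterByExpr were TMM-scaled and tested by the quasi-likelihood method (edgeR 4.0.16, R 4.3.3), with Benjamini-Hochberg adjustment over all genes tested and a threshold of 0.05. Each line was fitted with WT, and the lines were compared in a fit of all 12 libraries. Confidence intervals are at 95%. TPM used the exonic lengths in the files. The length correction subtracted a lowess trend (span 0.3) of each library on log2 exonic length. Ratios had 1 count added to each gene and were tested by exact permutation. Libraries of 1 group differed by more than sampling noise (chi-square per gene of 3.58 to 35.3 over 18 pairs). DESeq2 1.42.0, limma-voom (limma 3.58.1), other scalings, other filters, a replicate block and leaving out each library were the alternatives. The gene tests and the length correction were tested on simulated data. Named genes were the 10 members, TST, called pathway genes, ABCD4, divergent or exon-overlapping neighbours, and the 3 genes most like each called member. Members and lists were chosen with earlier results of these data known.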

Additional observations from a re-analysis of the deposited data

Results flagged for a closer look

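In 70 groups of 4 libraries, the gap between the highest or lowest library and the rest was compared with Dixon's 95% critical value, which chance exceeds in about 1 in 20 groups. Of the 10 genes, 4 had such a library. CD320 stood at 191 CPM in WT replicate 3, beside 159 to 164 CPM in the other 3 WT libraries. MTRR stood at 30.7 CPM in overTST replicate 1, nearest of the 4 to WT, beside 27.2 to 27.4 CPM. TCN2 stood at 0.250 CPM (7 counts) in shTST replicate 1, beside 0.696 to 0.763 CPM. TCN1 stood at 0.0307 CPM (1 count) in WT replicate 4, beside 0 in the others, a pattern that is always past the critical value.

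Among the other named genes, TST stood at 36.6 CPM in shTST replicate 3, beside 33.0 to 33.6 CPM. In WT replicate 2, the library with the highest total count, ABCC1 stood at 186 CPM beside 159 to 162 CPM, and ZNF143 at 15.4 CPM beside 13.2 to 13.6 CPM.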

How the results depend on the processing

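MTRR stayed lower in overTST than in WT under all 18 alternatives (log2 fold change −0.40 to −0.28), and 0 of the 9 genes passed in shTST under any. Over all alternatives, 1351 values for single genes and ratios were scored as kept. So were 173 for TST and for counts of genes or ratios that passed. For single genes and TST, kept meant the same direction and side of the threshold. For counts it meant near the reported count. Ratios with a library left out were scored as kept even where they crossed 0. The test of total counts had no alternative. Among single genes 44 values lost and 34 gained a call, and TST lost its call in overTST under the 2 settings with length correction. Depth limits TCN1, TCN2 and MMAA. TCN2 had no value in shTST under DESeq2 or the filter of 1 CPM. A paired sign-flip test of the ratios cannot reach the threshold with 4 pairs and was not run. The causes were not tested.

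The count of the 9 genes that passed in overTST was 3, and 1 to 4 when each library was left out, lowest without overTST replicate 4. The pathway count in shTST was 2, 4 with no filter on low counts, and 3 with a replicate block, length correction or both. It was 1 to 3 when each library was left out, lowest without shTST replicate 1. Without that replicate 1513 of all genes passed in shTST, against 2346. The TST value in overTST no longer passed with length correction, at 0.0965 (adjusted p = 0.201).

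Whether replicate numbers pair the libraries was not settled. Same-numbered libraries correlated at −0.0527 to 0.0801 in their deviations from group means, and the highest correlations with another number reached 0.0781. With a replicate block, 2980 genes passed in shTST and 5166 in overTST, against 2346 and 4893 without it. Of the 9 genes, 3 passed in overTST, beside 35.8% of all genes, and 3 between the lines, beside 35.2%, CD320 being added (adjusted p = 0.0213). With length correction as well, CD320 was at −0.0448 between the lines (adjusted p = 0.52). With length correction and the block together, TST in overTST was at 0.0944 (adjusted p = 0.159) and 4 of the 9 passed in that comparison, beside 30.6% of all genes.

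Directions turned as follows. In shTST, upper-quartile scaling gave 0.0115 for MMACHC, 0.00879 for PES1, 0.0178 for CCDC163 and 0.00533 for ABCD4. The filter of 1 CPM gave 0.00104 for CCDC163, and no filter gave −0.00112 for MVK. Length correction, without and with the block, gave −0.00203 and −0.00199 for PRDX1 and 0.00574 and 0.00285 for ABCD4 in shTST. In overTST it gave −0.0208 and −0.0202 for CD320, 0.0193 and 0.0195 for MTR, −0.0115 and −0.0115 for PRDX1, and −0.0885 and −0.0792 for MMADHC-DT. Between the lines it gave 0.0363 and 0.0380 for LMBRD1, 0.0827 and 0.0828 for MMADHC, 0.00945 and 0.00940 for PRDX1, and 0.0986 and 0.0989 for MMADHC-DT. The ratio of MMACHC to MMADHC in overTST turned to 0.151 with it. Of these, MTR in overTST and PRDX1 in overTST and between the lines had passed.

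Leaving out each library moved values that had not passed across 0. In shTST the ranges were −0.206 to 0.212 for TCN2, −0.0989 to 0.0158 for CD320, −0.0458 to 0.0230 for MMACHC, −0.0669 to 0.0212 for MTRR, −0.0665 to 0.0124 for BHMT2, −0.0229 to 0.00305 for PES1, −0.0564 to 0.0510 for CCDC163, −0.0559 to 0.123 for MMADHC-DT, −0.0496 to 0.0544 for MVK and −0.0565 to 0.0367 for ABCD4. In overTST they were −0.0435 to 0.203 for MMADHC-DT and −0.0357 to 0.0728 for ABCD4. Between the lines they were −0.00138 to 0.0721 for THAP11, −0.160 to 0.0898 for MMADHC-DT and −0.0854 to 0.0194 for ABCD4. For the log2 ratios, the range of TCN2 to CD320 in shTST was −0.243 to 0.270. In overTST the ranges were −0.0587 to 0.0282 for MMACHC to MMADHC and −0.0145 to 0.220 for MMAA to MMAB.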
